A study of Mus musculus with 12 samples.

Results

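Interferon-stimulated genes are the genes that cells switch on when an interferon reaches its receptor. The group described here holds 43 of them, chosen by gene symbol as well-known members of this response, out of 45906 genes in the deposited count table. The choice was made with earlier results of these data known. All 43 were found, and all 43 were among the 20155 genes that passed the filter on low counts. Total spinal cord RNA was sequenced from 12 mice aged 7 months on a C57BL/6 background, 3 in each of 4 genotypes. Plekhg5+/+ mice had intact Plekhg5 and no transgene, and Plekhg5-/- mice lacked the guanine exchange factor Plekhg5, which acts in neuronal autophagy. The other genotypes, Plekhg5+/+ SOD1-G93A and Plekhg5-/- SOD1-G93A, had in addition the "low copy" human SOD1 transgene with the ALS-linked G93A mutation, which is a model of slow disease progression. The question was whether loss of Plekhg5 alters the neuroinflammatory expression signature of SOD1-G93A mice.

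Type I interferons signal through the receptor chains Ifnar1 and Ifnar2 to transcription factors, among them Stat2 and Irf9, which bind the interferon-stimulated response element in promoters. Interferon-γ acts through gamma-activated sequences. The products recognize foreign or misplaced nucleic acids, block translation and degrade viral RNA, trap virus particles at membranes and limit the signal again. In the spinal cord, microglia and other glia are known to respond to interferons.

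Promoter sequences were compared first, since a shared response element is what is known to join such genes. RefSeq promoter sequences of GRCm38.p6, from 250 bases before to 50 bases after the start, were matched by symbol for 32 of the 43 genes. The core of the interferon-stimulated response element, written TTTCNNTTTC and searched on both strands, was found in 18 of these 32 genes (56.2%), compared with 3.99% of the 27025 genes in the promoter table. The core of the gamma-activated sequence, TTCNNNGAA, which reads the same on both strands, was found in 8 of the 32 genes (25%) and in 9.55% of all genes. Both cores were found in 6 of the 32 genes (18.8%), compared with 0.614% of all genes, and overlapping cores were counted separately. The windows below are shown because they belong to genes whose levels are described further on. They give the 5′ to 3′ sequence on the strand of the gene, end no later than the start, and have the response element cores in capitals, in either orientation.

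Ifit1, chr19:34640760-34640838, plus strand: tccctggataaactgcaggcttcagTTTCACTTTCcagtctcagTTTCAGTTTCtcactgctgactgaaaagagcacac
Ifit3, chr19:34583348-34583441, plus strand: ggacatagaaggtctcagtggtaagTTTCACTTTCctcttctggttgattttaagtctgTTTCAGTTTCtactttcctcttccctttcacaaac
Ifit3b, chr19:34607744-34607837, plus strand: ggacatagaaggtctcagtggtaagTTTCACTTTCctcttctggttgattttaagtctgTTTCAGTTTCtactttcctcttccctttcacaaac
Bst2, chr8:71537562-71537627, minus strand: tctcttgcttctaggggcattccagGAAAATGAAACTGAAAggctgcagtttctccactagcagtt
Igtp, chr11:58199497-58199555, plus strand: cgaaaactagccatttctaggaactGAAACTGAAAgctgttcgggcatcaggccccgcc
Gbp3, chr3:142559974-142560039, plus strand: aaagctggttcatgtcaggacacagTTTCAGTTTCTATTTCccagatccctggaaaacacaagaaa
Oas1a, chr5:120907526-120907570, minus strand: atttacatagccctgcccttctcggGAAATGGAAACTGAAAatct
Rsad2, chr12:26456538-26456597, minus strand: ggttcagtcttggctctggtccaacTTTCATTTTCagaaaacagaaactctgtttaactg

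The cores of Ifit1 began 104 and 85 bases before the start, and the single core of Igtp 34 bases before it. The windows of Ifit3 and Ifit3b, neighbouring genes 18547 bases apart on chromosome 19, were identical over 94 bases. A pair of overlapping cores was seen in Bst2, Gbp3 and Oas1a. Irf7, Irf9, Oasl2 and Lgals3bp had no match to the core within the 300 bases. A match to these letters describes the sequence and was not tested as a binding site.

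**Figure D1:**
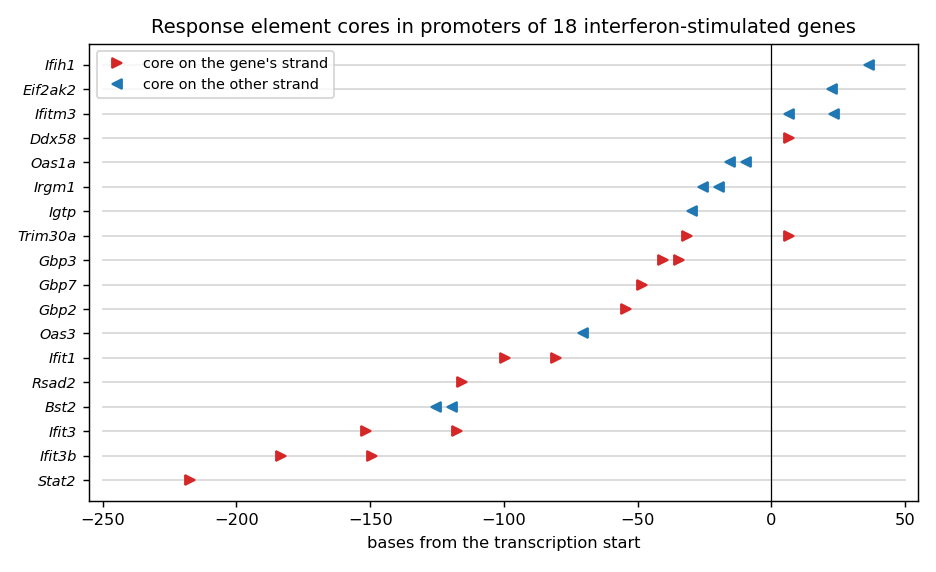
Positions of the response element core in the RefSeq promoters of 18 interferon-stimulated genes; the x axis gives bases from the transcription start and each row is a gene. Arrowheads mark the centre of a core on the strand of the gene (right) or on the other strand (left), and the cores of Stat2 and Ifit3b lie farthest upstream.

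The library totals were between 30415643 and 38743628 counts. Levels are given as CPM, the counts scaled to library size after TMM normalization. Plekhg5 was between 3.28 and 4.72 CPM in the 6 Plekhg5-/- libraries of both kinds and between 19.4 and 24.96 CPM in the other 6. Human SOD1 was between 4421 and 5638 CPM in the 6 SOD1-G93A libraries and at most 5.47 CPM in the others. As a check of the tissue, oligodendrocyte markers summed to between 21669 and 30882 CPM and motoneuron and neuron markers to between 3446 and 4465 CPM. Y-linked transcripts were detected in 8 of the 12 libraries and were missing from Plekhg5-/- replicate 2, Plekhg5+/+ SOD1-G93A replicate 2 and Plekhg5-/- SOD1-G93A replicates 2 and 3.

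Of all libraries, Plekhg5+/+ SOD1-G93A replicate 1 stood apart. It had the highest level of the 12 libraries in 42 of the 43 genes, whereas it was the highest of 12 in 15.3% of all genes tested. The exception was Ifi27l2a. The median level of the 43 genes in this library was 3.19-fold of the mean of the Plekhg5+/+ mice, compared with 1.39-fold and 1.34-fold in replicates 2 and 3 of the same genotype. The matching medians were 1.36-fold, 1.45-fold and 1.19-fold in the Plekhg5-/- SOD1-G93A libraries and 0.969-fold, 1.16-fold and 1.05-fold in the Plekhg5-/- libraries. Of all genes tested, 5.02%, 1.82% and 2.1% exceeded 2-fold of the Plekhg5+/+ mean in replicates 1, 2 and 3 of this genotype. Of the 43 genes, 36 did so in replicate 1, 10 in replicate 2 and 4 in replicate 3. For this reason the count and the median of the 43 genes are given with and without this library in each comparison, and the calls in the other gene lists likewise where there were any. The other lists were refitted in this way only after their values were seen.

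Microglia markers moved with this library. The 9 markers (Csf1r, Aif1, Itgam, C1qa, C1qb, Cx3cr1, P2ry12, Tmem119 and Cd68) had a median of 3.02-fold of the Plekhg5+/+ mean in replicate 1, and 1.77-fold in each of replicates 2 and 3. Their summed level was between 326 and 367 CPM in Plekhg5+/+, between 348 and 480 CPM in Plekhg5-/-, between 597 and 1107 CPM in Plekhg5+/+ SOD1-G93A and between 454 and 502 CPM in Plekhg5-/- SOD1-G93A mice. In Plekhg5+/+ SOD1-G93A against Plekhg5+/+ mice 8 of these 9 markers passed the test, each higher, compared with 2.09% of all genes called higher. Tmem119 did not pass (log2 fold change 0.25, SE 0.18, edgeR adjusted p = 0.496). The median log2 fold change of the 9 markers was 1.13. Without replicate 1 it was 0.82, with 7 of the 9 called higher, compared with 1.05% of all genes. Astrocyte markers summed to 11479 CPM in replicate 1 and to between 6745 and 8474 CPM in the other 11 libraries. The median of the 7 astrocyte markers differed less. It was 1.22-fold of the Plekhg5+/+ mean in replicate 1 and between 0.94-fold and 1.19-fold in the other 11 libraries. Markers of T and NK cells summed to at most 3.40 CPM and markers of B cells to at most 2.76 CPM in any library. Neutrophil markers summed to 86.97 CPM in replicate 1 and to between 8.94 and 147 CPM in the others. In the same comparison the astrocyte marker Gfap was called higher and the endothelial marker Ly6c1 lower, and 0 markers of the other 7 cell types were called. Without replicate 1, 1 of 7 astrocyte markers was called higher and 0 of 7 endothelial markers were called. In bulk RNA, more cells of a type and more RNA per cell cannot be told apart, and the part of these cells in the results was not tested.

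**Figure D2:**
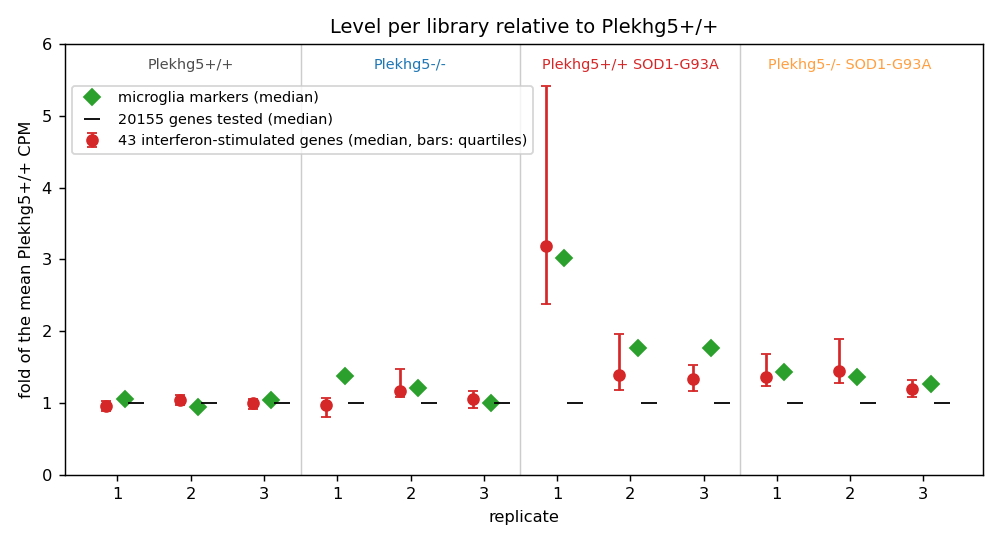
Median level of the 43 interferon-stimulated genes (red, bars are quartiles over genes), of 9 microglia markers (green) and of the 20155 genes tested (black) in each library, as fold of the mean Plekhg5+/+ CPM (y axis), by replicate within genotype (x axis). Plekhg5+/+ SOD1-G93A replicate 1 is at 3.19 for the interferon-stimulated genes and 3.02 for the microglia markers, and no other library exceeds 1.45 and 1.77.

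In the spinal cord of Plekhg5+/+ SOD1-G93A mice, all 43 genes had a higher fitted mean than in Plekhg5+/+ mice. The median log2 fold change was 0.92, with a range from 0.07 to 3.40, compared with a median of 0.00 over all genes tested. Of the 43 genes, 3 passed the test at an adjusted p under 0.05 (edgeR quasi-likelihood test, Benjamini-Hochberg adjustment), all higher, namely the GTPases Mx1 and Igtp and the ADP-ribosyltransferase family member Parp9. Of all genes tested, 2.09% were called higher. At an unadjusted p under 0.05, 37 of the 43 were higher, compared with 10.6% of all genes. The 3 libraries lay above all 3 Plekhg5+/+ libraries in 32 of the 43 genes, compared with 11.6% of all genes. Taken singly, replicate 2 lay above all Plekhg5+/+ libraries in 38 of the 43 genes, compared with 24.7% of all genes. For replicate 3 it was 34 of the 43 genes, compared with 29.7% of all genes.

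The 3 calls depended on single libraries. Without Plekhg5+/+ SOD1-G93A replicate 1, the median log2 fold change was 0.40, with 42 genes positive and Cmpk2 negative. 1 gene was then called, Lgals3bp (log2 fold change 0.91, SE 0.129, edgeR adjusted p = 0.00371), compared with 1.05% of all genes called higher, and 24 of the 43 were higher at an unadjusted p under 0.05, compared with 6.7% of all genes. The number of calls was 20 without replicate 2 of the same genotype, compared with 3.05% of all genes, and 24 without replicate 3, compared with 2.77% of all genes. It was 3 without Plekhg5-/- replicate 1, compared with 2.47% of all genes. It was 0 without Plekhg5+/+ replicate 1 or 2, where 0.0195% and 0.00976% of all genes were called higher. It was also 0 without Plekhg5+/+ replicate 3, Plekhg5-/- replicate 2 or 3, or any of the 3 Plekhg5-/- SOD1-G93A libraries, where between 1.32% and 1.67% of all genes were called higher. DESeq2 with a prior on fold changes called 27 of the 43 genes, compared with 4.1% of all genes called higher, and limma voom with quality weights called 0, compared with 1.27%.

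**Figure D3:**
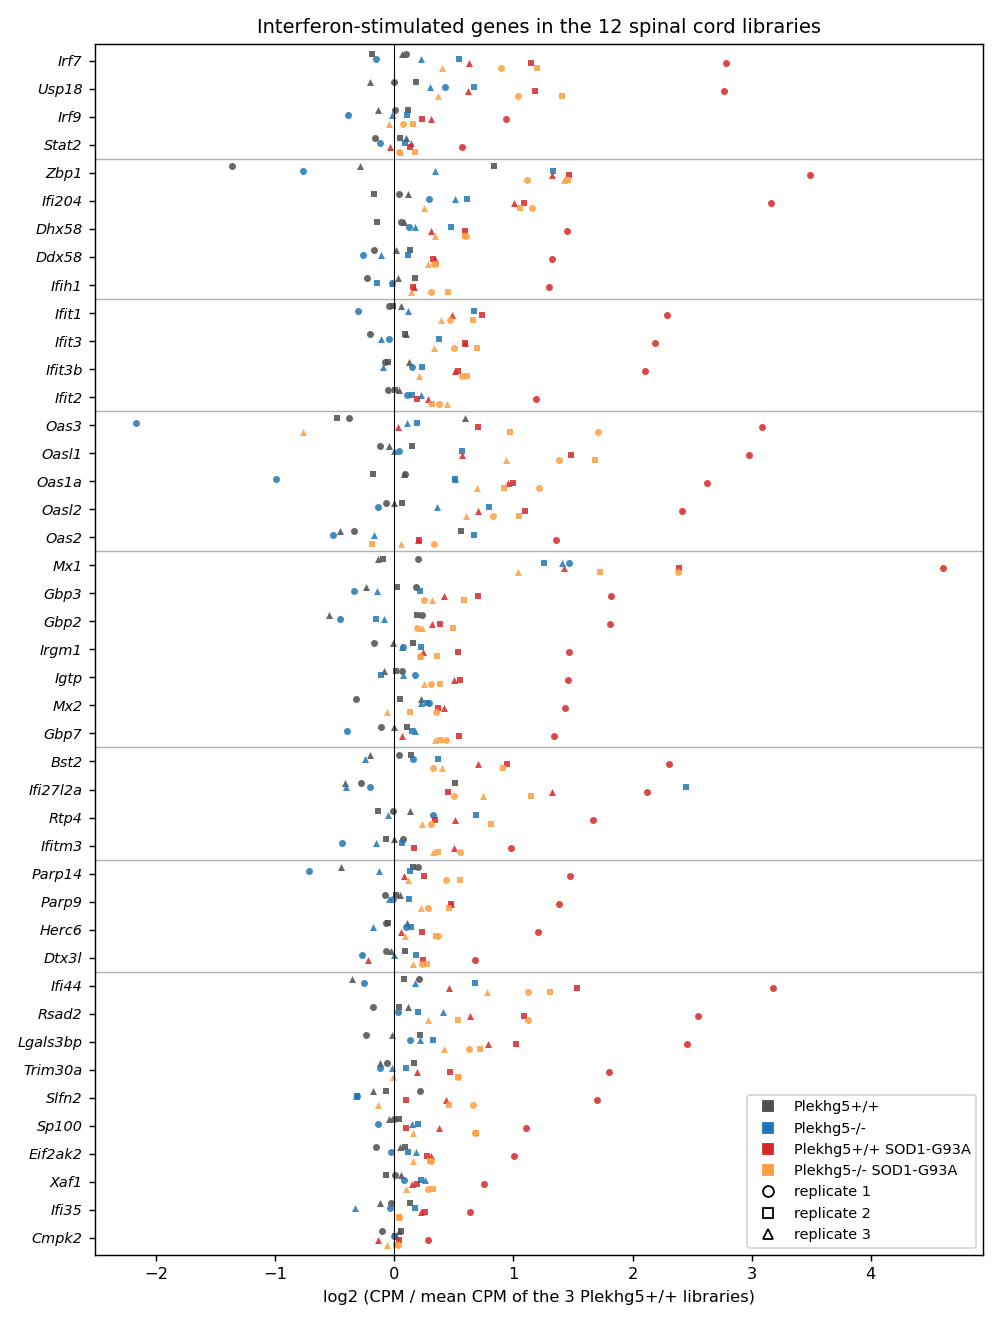
log2 ratio of the CPM in each of the 12 libraries to the mean of the 3 Plekhg5+/+ libraries (x axis) for the 43 genes (y axis), grouped by role and ordered within a role by the level in Plekhg5+/+ SOD1-G93A replicate 1. Colours mark genotypes and symbols mark replicates, and the red circle of that replicate is the rightmost point in 42 of 43 rows.

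Among the 4 regulators, the transcription factor Irf7, which amplifies the interferon response, was between 2.52 and 3.07 CPM in Plekhg5+/+ and at 19.8, 6.34 and 4.44 CPM in Plekhg5+/+ SOD1-G93A replicates 1 to 3. In Plekhg5-/- mice Irf7 was at 2.57, 4.19 and 3.34 CPM, and in Plekhg5-/- SOD1-G93A mice at 5.33, 6.56 and 3.78 CPM. All SOD1-G93A libraries of Irf7 thus lay above all Plekhg5+/+ libraries, while both SOD1-G93A genotypes overlapped each other. Against Plekhg5+/+ mice, the log2 fold change of Irf7 in Plekhg5+/+ SOD1-G93A mice was 1.83 (SE 0.48, edgeR adjusted p = 0.0732), and 0.91 without replicate 1.

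Usp18, the protease that removes Isg15 from proteins and dampens the receptor, had nearly the same pattern. Its level was 1.30, 1.48 and 1.13 CPM in Plekhg5+/+, 1.76, 2.08 and 1.61 CPM in Plekhg5-/-, 8.88, 2.97 and 2.01 CPM in Plekhg5+/+ SOD1-G93A and 2.68, 3.46 and 1.68 CPM in Plekhg5-/- SOD1-G93A mice. Here the Plekhg5-/- libraries were also above all Plekhg5+/+ libraries. For Usp18 the log2 fold change in Plekhg5+/+ SOD1-G93A against Plekhg5+/+ mice was 1.82 (SE 0.475, edgeR adjusted p = 0.0681), and 0.93 without replicate 1.

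Irf9 and Stat2, which form the complex that binds the response element, varied less. Irf9 was between 10.99 and 13.1 CPM in Plekhg5+/+ and at 23.2, 14.2 and 14.9 CPM in Plekhg5+/+ SOD1-G93A mice, and between 9.25 and 13.5 CPM in the 6 Plekhg5-/- libraries of both kinds. Stat2 was between 22.3 and 26.6 CPM in Plekhg5+/+, between 22.8 and 27.4 CPM in Plekhg5-/-, and between 25.5 and 28.1 CPM in Plekhg5-/- SOD1-G93A mice. In Plekhg5+/+ SOD1-G93A mice Stat2 was at 36.9, 27.2 and 24.3 CPM, so that this group overlapped each of the others. The log2 fold change of Stat2 was 0.25 (SE 0.134, edgeR adjusted p = 0.363), and that of Irf9 was 0.53 (SE 0.174, adjusted p = 0.128).

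The 5 nucleic acid sensors had a median log2 fold change of 0.87 in Plekhg5+/+ SOD1-G93A against Plekhg5+/+ mice, and 0 of them were called. All 5 were higher at an unadjusted p under 0.05 in edgeR, compared with 10.6% of all genes. Zbp1, the sensor of Z-form nucleic acids, was among the 3 genes with the greatest fold change in the group of 43. It was at 0.116, 0.535 and 0.245 CPM in Plekhg5+/+ and at 3.35, 0.825 and 0.750 CPM in Plekhg5+/+ SOD1-G93A mice. In Plekhg5-/- mice Zbp1 was at 0.176, 0.753 and 0.379 CPM, and in Plekhg5-/- SOD1-G93A mice at 0.648, 0.820 and 0.803 CPM. Zbp1 was low throughout, and only replicate 1 of Plekhg5+/+ SOD1-G93A exceeded 1 CPM (log2 fold change 2.46, SE 0.676, edgeR adjusted p = 0.0784). Without this library the log2 fold change of Zbp1 was 1.40.

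Ifi204, a DNA sensor of the Ifi200 family, was between 1.10 and 1.35 CPM in Plekhg5+/+ and between 1.52 and 1.90 CPM in Plekhg5-/- mice. It was at 11.1, 2.64 and 2.49 CPM in Plekhg5+/+ SOD1-G93A and at 2.78, 2.58 and 1.48 CPM in Plekhg5-/- SOD1-G93A mice. The libraries of both SOD1-G93A genotypes thus overlapped, with or without replicate 1 of Plekhg5+/+ SOD1-G93A. The RNA sensors Ddx58, Ifih1 and Dhx58, which recognize viral RNA in the cytosol or regulate this recognition, had log2 fold changes between 0.65 and 0.87 in Plekhg5+/+ SOD1-G93A against Plekhg5+/+ mice, and between 0.16 and 0.45 without replicate 1.

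The Ifit genes encode proteins that bind foreign RNA and block its translation. Ifit1 was between 5.13 and 5.51 CPM in Plekhg5+/+, at 4.30, 8.44 and 5.74 CPM in Plekhg5-/-, at 25.9, 8.84 and 7.44 CPM in Plekhg5+/+ SOD1-G93A, and at 7.34, 8.38 and 6.94 CPM in Plekhg5-/- SOD1-G93A mice. Ifit3 was at 14.3, 17.6 and 17.6 CPM in Plekhg5+/+, at 16.0, 21.4 and 15.3 CPM in Plekhg5-/-, at 75.4, 24.9 and 24.9 CPM in Plekhg5+/+ SOD1-G93A, and at 23.3, 26.7 and 20.9 CPM in Plekhg5-/- SOD1-G93A mice. In both genes the SOD1-G93A libraries of either genotype lay above those of Plekhg5+/+, and Plekhg5-/- replicate 2 was the highest of its group. The log2 fold change in Plekhg5+/+ SOD1-G93A against Plekhg5+/+ mice was 1.34 for Ifit3 (SE 0.382, edgeR adjusted p = 0.0982) and 1.41 for Ifit1 (SE 0.415, adjusted p = 0.103). Without replicate 1 these values were 0.60 for Ifit3 and 0.62 for Ifit1. Ifit3 and its near copy Ifit3b can share reads, which the counting divided between genes, and Ifit3b had a log2 fold change of 1.26, or 0.52 without replicate 1. Of the 4 Ifit genes, 0 were called. All 4 were higher at an unadjusted p under 0.05 in edgeR, compared with 10.6% of all genes.

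The OAS family, whose enzymes sense double-stranded RNA and activate RNase L, or are inactive relatives of these enzymes, had the highest median in replicate 1 of all 8 roles, at 6.16-fold of the Plekhg5+/+ mean. In replicates 2 and 3 it was 1.99-fold and 1.48-fold. Oasl2 was between 6.03 and 6.61 CPM in Plekhg5+/+, at 5.76, 10.997 and 8.11 CPM in Plekhg5-/-, at 33.8, 13.5 and 10.3 CPM in Plekhg5+/+ SOD1-G93A, and at 11.2, 13.1 and 9.58 CPM in Plekhg5-/- SOD1-G93A mice. All 6 SOD1-G93A libraries of Oasl2 lay above Plekhg5+/+, but only partly above Plekhg5-/- (log2 fold change 1.603, SE 0.393, edgeR adjusted p = 0.0603, and 0.91 without replicate 1).

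Oas3 had the greatest excess of replicate 1 over the mean of the other 2 Plekhg5+/+ SOD1-G93A libraries, 6.40-fold, compared with a median of 2.37-fold over the 43 genes. It was at 2.24, 0.429 and 0.270 CPM in this genotype and at 0.863, 0.516 and 0.155 CPM in Plekhg5-/- SOD1-G93A mice. In Plekhg5+/+ mice Oas3 was at 0.203, 0.189 and 0.398 CPM, and in Plekhg5-/- mice at 0.0585, 0.301 and 0.284 CPM. The groups of Oas3 overlapped, and its log2 fold change of 1.88 had an SE of 0.823 (edgeR adjusted p = 0.253) and was 0.40 without replicate 1. Oasl1 was between 0.261 and 0.315 CPM in Plekhg5+/+, between 0.284 and 0.422 CPM in Plekhg5-/-, at 2.24, 0.792 and 0.420 CPM in Plekhg5+/+ SOD1-G93A, and at 0.740, 0.911 and 0.544 CPM in Plekhg5-/- SOD1-G93A mice.

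The 7 interferon-inducible GTPases held 2 of the 3 calls. Mx1, which blocks influenza virus in mice with an intact gene and is annotated as a transcribed pseudogene in this C57BL/6-based reference, was the lowest of the 43 genes in Plekhg5+/+ mice, at 0.232, 0.189 and 0.184 CPM. It was at 0.556, 0.482 and 0.536 CPM in Plekhg5-/-, at 4.91, 1.06 and 0.540 CPM in Plekhg5+/+ SOD1-G93A, and at 1.05, 0.668 and 0.414 CPM in Plekhg5-/- SOD1-G93A mice. Each of the other 3 genotypes thus lay above Plekhg5+/+ in every library, and these 3 overlapped one another. The log2 fold change of Mx1 in Plekhg5+/+ SOD1-G93A against Plekhg5+/+ mice was 3.40 (SE 0.77, edgeR adjusted p = 0.0442), and 1.95 (SE 0.435, adjusted p = 0.059) without replicate 1.

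Igtp, a GTPase that acts on the vacuoles of intracellular parasites, was at 5.83, 5.63 and 5.27 CPM in Plekhg5+/+ and at 6.29, 5.15 and 5.87 CPM in Plekhg5-/- mice. It was at 15.3, 8.18 and 7.89 CPM in Plekhg5+/+ SOD1-G93A and at 6.91, 7.29 and 6.63 CPM in Plekhg5-/- SOD1-G93A mice. The 4 groups of Igtp therefore separated, except that Plekhg5+/+ and Plekhg5-/- overlapped. The log2 fold change of Igtp in Plekhg5+/+ SOD1-G93A against Plekhg5+/+ mice was 0.91 (SE 0.209, edgeR adjusted p = 0.0428), and 0.53 (SE 0.114, adjusted p = 0.0528) without replicate 1. The guanylate-binding proteins Gbp2, Gbp3 and Gbp7, the parasite-resistance GTPase Irgm1 and Mx2 had log2 fold changes between 0.75 and 1.11. Each had an unadjusted p under 0.05 in edgeR, compared with 10.6% of all genes higher. Without replicate 1 their log2 fold changes were between 0.32 and 0.57. Gbp3 and Irgm1 then still had an unadjusted p under 0.05, compared with 6.7% of all genes, and Gbp2, Gbp7 and Mx2 did not.

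Mx2 and Gbp2 are named for their order in other comparisons. Mx2, a relative of Mx1 that lies 73174 bases away on chromosome 16, was between 1.51 and 2.20 CPM in Plekhg5+/+, between 2.21 and 2.31 CPM in Plekhg5-/-, at 5.09, 2.44 and 2.52 CPM in Plekhg5+/+ SOD1-G93A, and at 2.41, 2.06 and 1.81 CPM in Plekhg5-/- SOD1-G93A mice. Gbp2 was at 8.41, 8.15 and 4.90 CPM in Plekhg5+/+, between 5.21 and 6.75 CPM in Plekhg5-/-, at 25.1, 9.34 and 8.94 CPM in Plekhg5+/+ SOD1-G93A, and at 8.17, 10.1 and 8.39 CPM in Plekhg5-/- SOD1-G93A mice. Gbp2 overlapped between Plekhg5+/+ and Plekhg5-/-, and Mx2 was slightly higher in all Plekhg5-/- libraries.

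**Figure D4:**
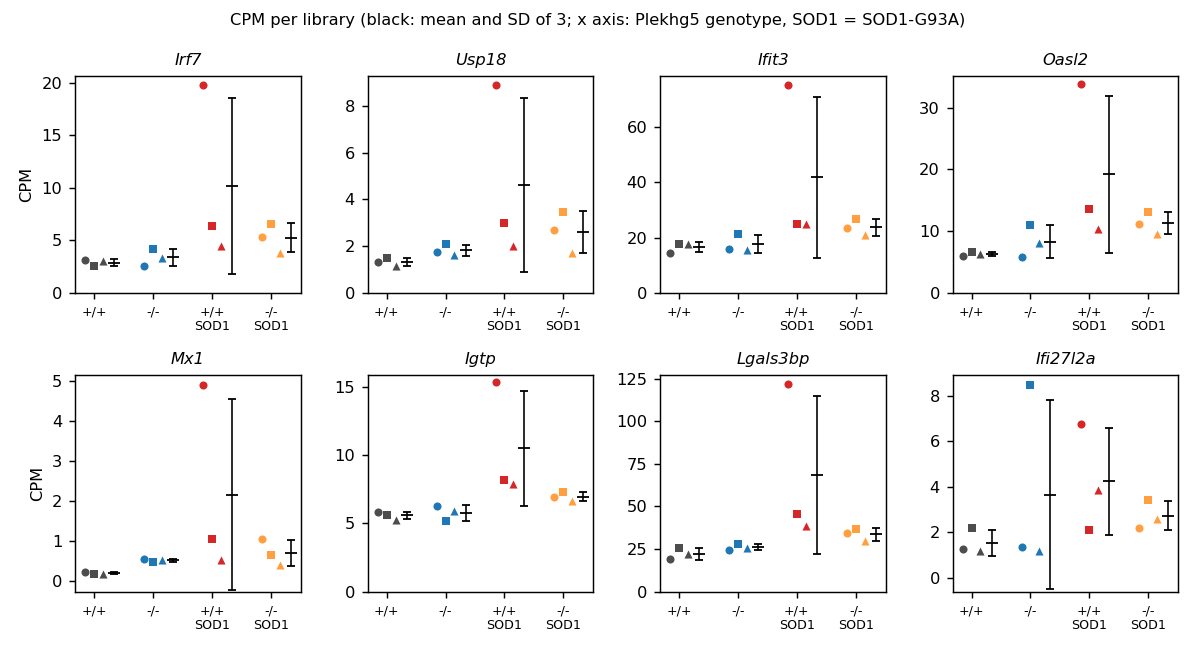
CPM per library (y axis) of Irf7, Usp18, Ifit3, Oasl2, Mx1, Igtp, Lgals3bp and Ifi27l2a in the 4 genotypes (x axis); circles, squares and triangles are replicates 1, 2 and 3, and black marks with bars are the mean and SD of 3 mice. In 7 panels the red circle of Plekhg5+/+ SOD1-G93A replicate 1 is highest, and for Ifi27l2a Plekhg5-/- replicate 2 is highest at 8.47 CPM.

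Among the 4 membrane proteins, Bst2, which tethers budding viruses to the cell surface, was between 3.22 and 4.06 CPM in Plekhg5+/+, at 4.13, 4.76 and 3.12 CPM in Plekhg5-/-, at 18.2, 7.10 and 6.03 CPM in Plekhg5+/+ SOD1-G93A, and at 4.63, 6.95 and 4.87 CPM in Plekhg5-/- SOD1-G93A mice. All SOD1-G93A libraries of Bst2 were above Plekhg5+/+ (log2 fold change in Plekhg5+/+ SOD1-G93A 1.50, SE 0.365, edgeR adjusted p = 0.0553, and 0.83 without replicate 1). Ifitm3, which blocks the entry of viruses from endosomes, was at 13.8, 12.5 and 13.1 CPM in Plekhg5+/+, at 9.71, 13.8 and 11.8 CPM in Plekhg5-/-, at 25.9, 14.7 and 18.7 CPM in Plekhg5+/+ SOD1-G93A, and at 19.2, 16.9 and 16.5 CPM in Plekhg5-/- SOD1-G93A mice. For Ifitm3, both SOD1-G93A genotypes lay above both genotypes without the transgene, and they overlapped each other.

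Ifi27l2a, a small interferon-induced membrane protein, was the only one of the 43 genes not highest in Plekhg5+/+ SOD1-G93A replicate 1. It was at 1.35, 8.47 and 1.17 CPM in Plekhg5-/-, compared with 1.28, 2.20 and 1.16 CPM in Plekhg5+/+ mice. In Plekhg5+/+ SOD1-G93A mice Ifi27l2a was at 6.74, 2.11 and 3.87 CPM, and in Plekhg5-/- SOD1-G93A mice at 2.19, 3.43 and 2.59 CPM. A single Plekhg5-/- mouse thus set the mean of its group, 3.66 CPM with an SD of 4.16. This mouse, Plekhg5-/- replicate 2, lay above all Plekhg5+/+ libraries in 31 of the 43 genes, compared with 21.5% of all genes. For Plekhg5-/- replicates 1 and 3 it was 11 and 17 of the 43 genes, compared with 31.3% and 22.7% of all genes.

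Of the enzymes of ubiquitin and ADP-ribose, Parp9 was at 5.10, 5.44 and 5.57 CPM in Plekhg5+/+, at 5.32, 5.84 and 5.21 CPM in Plekhg5-/-, at 14.04, 7.46 and 7.498 CPM in Plekhg5+/+ SOD1-G93A, and at 6.54, 7.41 and 6.27 CPM in Plekhg5-/- SOD1-G93A mice. Every group of SOD1-G93A libraries of Parp9 lay above both groups without the transgene. The log2 fold change of Parp9 in Plekhg5+/+ SOD1-G93A against Plekhg5+/+ mice was 0.85 (SE 0.204, edgeR adjusted p = 0.0493), and 0.48 (SE 0.113, adjusted p = 0.0809) without replicate 1. Its partner Dtx3l, a ubiquitin ligase whose gene overlaps Parp9 by 558 bases on the other strand, had a log2 fold change of 0.28 (SE 0.179, adjusted p = 0.456). Reads were counted by strand, so the overlap does not by itself join their counts.

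The other 10 effectors held both the steadiest gene and some of those with large folds. Lgals3bp, a secreted glycoprotein, was at 18.9, 25.9 and 22.0 CPM in Plekhg5+/+, at 24.4, 28.0 and 25.8 CPM in Plekhg5-/-, at 122, 45.3 and 38.5 CPM in Plekhg5+/+ SOD1-G93A, and at 34.4, 36.7 and 29.7 CPM in Plekhg5-/- SOD1-G93A mice. The Plekhg5+/+ SOD1-G93A libraries of Lgals3bp lay above all others, and the Plekhg5-/- SOD1-G93A libraries came next without overlap. With all libraries its log2 fold change in Plekhg5+/+ SOD1-G93A against Plekhg5+/+ mice was 1.62 (SE 0.37, edgeR adjusted p = 0.0515), so that the smaller difference without replicate 1 was the one that passed.

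Ifi44, an interferon-induced protein of unclear function, was between 0.766 and 1.13 CPM in Plekhg5+/+, between 0.819 and 1.57 CPM in Plekhg5-/-, at 8.85, 2.84 and 1.35 CPM in Plekhg5+/+ SOD1-G93A, and at 2.13, 2.43 and 1.68 CPM in Plekhg5-/- SOD1-G93A mice. Slfn2, a Schlafen family member that acts in lymphocytes and macrophages, was at 7.33, 2.41 and 3.03 CPM in Plekhg5+/+ SOD1-G93A mice and between 1.80 and 1.81 CPM in the 3 Plekhg5-/- mice, below the 1.99 to 2.61 CPM of Plekhg5+/+. In Plekhg5-/- SOD1-G93A mice Slfn2 was at 3.55, 3.10 and 2.05 CPM.

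Cmpk2 and Rsad2 are neighbours on chromosome 12, transcribed away from each other with 12664 bases between them, and both are known to be induced by interferon. Rsad2 encodes viperin, which makes an antiviral nucleotide, and was between 2.35 and 2.88 CPM in Plekhg5+/+ and at 15.5, 5.64 and 4.14 CPM in Plekhg5+/+ SOD1-G93A mice (log2 fold change 1.67, SE 0.418, edgeR adjusted p = 0.0609, and 0.88 without replicate 1). Cmpk2, a mitochondrial nucleotide kinase, was between 38.6 and 43.2 CPM in Plekhg5+/+ and at 50.6, 42.6 and 37.8 CPM in Plekhg5+/+ SOD1-G93A mice (log2 fold change 0.07, SE 0.0894, adjusted p = 0.716). In Plekhg5-/- and Plekhg5-/- SOD1-G93A mice Cmpk2 was between 39.8 and 42.4 CPM. Cmpk2 was therefore the gene with the highest CPM of the 43 in Plekhg5+/+ mice and the one with the smallest difference. It was also the one gene whose Plekhg5-/- SOD1-G93A mean did not lie between the means of Plekhg5+/+ and Plekhg5+/+ SOD1-G93A mice.

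On a scale per length (CPM per kilobase of exons), the order of levels in Plekhg5+/+ mice ran from Ifitm3 (20.3), Cmpk2 (12.0) and Lgals3bp (10.1) to Oasl1 (0.123), Mx1 (0.0747) and Oas3 (0.0536). In Plekhg5+/+ SOD1-G93A mice the means per kilobase were 31.2 for Lgals3bp, 30.5 for Ifitm3 and 15.5 for Ifit3, and Cmpk2 followed Bst2 at 12.7. The mean level in Plekhg5+/+ mice was under 1 CPM in 6 genes, Zbp1, Oasl1, Oas1a, Oas3, Mx1 and Ifi44, and no gene was at 0 in any library. At these low levels the error of counting is a larger share of the value.

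Other genes of the pathway were examined from lists by role. Of the interferon genes themselves, 0 of 20 type I and III ligand genes passed the filter. Ifnb1 had 2 counts in total in 1 library and Ifnk 1 count, and the other 18 had 0 counts in all 12 libraries. Ifng, the type II ligand, had 3 counts in all, at most 1 per library. At a depth of 30415643 counts or more, the interferon transcripts themselves were therefore at or near the limit of detection in each genotype. Members of the same ligand family share sequence, so that reads could also have been divided between them.

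Among the 6 receptor genes, 1 was called higher in Plekhg5+/+ SOD1-G93A against Plekhg5+/+ mice, where 2.09% of all genes were called higher. This was Ifnar2, at 26.4, 21.1 and 20.8 CPM compared with 17.1, 15.6 and 16.5 CPM (log2 fold change 0.47, SE 0.10, edgeR adjusted p = 0.0308). Without replicate 1 the log2 fold change of Ifnar2 was 0.35 (SE 0.09, adjusted p = 0.108), and 0 of the 6 receptor genes were called. Ifnar1, the other chain of the type I receptor, was at 47.7, 40.2 and 40.6 CPM compared with 40.9, 42.1 and 41.5 CPM (log2 fold change 0.05, SE 0.080, adjusted p = 0.816). Replicate 1 was the highest library in both.

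Of 15 signal transduction genes, 3 were called higher and 0 lower in the same comparison, again beside 2.09% of all genes called higher. These were Irf5 (log2 fold change 1.13, adjusted p = 0.0127), Irf8 (1.64, adjusted p = 0.0165) and the phosphatase gene Ptpn6 (1.29, adjusted p = 0.0198), all of which are known to be expressed in microglia and other myeloid cells. Irf8 was at 25.7, 12.0 and 11.4 CPM in Plekhg5+/+ SOD1-G93A mice and between 4.47 and 5.92 CPM in Plekhg5+/+ mice. Without replicate 1 Irf5 (0.91, adjusted p = 0.0187), Irf8 (1.16, adjusted p = 0.00537) and Ptpn6 (0.86, adjusted p = 0.0113) were still called, compared with 1.05% of all genes. Irf1, an early interferon-γ target, had a log2 fold change of 0.59 (adjusted p = 0.0847).

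Of 15 tested genes that act in sensing upstream of interferon, 2 were called higher, compared with 2.09% of all genes. These were the endosomal DNA receptor Tlr9 (log2 fold change 1.37, edgeR adjusted p = 0.0302) and its transport protein Unc93b1 (1.07, adjusted p = 0.0125). Tmem173, which encodes STING, had a log2 fold change of 0.74 (adjusted p = 0.0503). Without replicate 1 Unc93b1 (0.79, adjusted p = 0.00135) was called and Tlr9 (0.94, adjusted p = 0.0869) was not. Of 54 tested interferon-stimulated genes outside the group, 6 were called higher and 0 lower, compared with 2.09% of all genes called higher, and their median log2 fold change was 0.70. They were Phf11a (3.00), Phf11b (1.95), Epsti1 (1.52), Ifi30 (1.03), Trim21 (0.66) and Cxcl10 (3.53, SE 0.68, adjusted p = 0.0266). Cxcl10, a chemokine for T cells, was at 13.0, 3.93 and 1.74 CPM in Plekhg5+/+ SOD1-G93A mice and between 0.276 and 0.667 CPM in Plekhg5+/+ mice. Isg15, the ubiquitin-like modifier, was at 8.70, 2.71 and 2.46 CPM compared with 1.97, 1.73 and 1.65 CPM, without overlap (log2 fold change 1.37, SE 0.40, adjusted p = 0.0952). Without replicate 1 the median of the 54 genes was 0.32, and 3 were called, Phf11a (2.47, adjusted p = 0.0123), Epsti1 (1.14, adjusted p = 0.0483) and Cxcl10 (2.39, adjusted p = 0.0152), compared with 1.05% of all genes. In that fit Phf11b was at 1.12 (adjusted p = 0.0869), Ifi30 at 0.61 (adjusted p = 0.134), Trim21 at 0.52 (adjusted p = 0.12) and Isg15 at 0.53 (adjusted p = 0.268).

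The next comparison asked whether loss of Plekhg5 changed these genes in SOD1-G93A mice. In Plekhg5-/- SOD1-G93A against Plekhg5+/+ SOD1-G93A mice, all 43 fitted differences were negative, with a median log2 fold change of -0.62 and a range from -1.62 to -0.06. None of them passed the test, since 0 of the 43 genes were called lower by edgeR, compared with 0.0198% of all genes, and the smallest adjusted p was 0.517. At an unadjusted p under 0.05, 13 of the 43 were lower, compared with 5.05% of all genes. DESeq2 with and without the prior and limma voom with quality weights also called 0 genes, with 22, 15 and 9 genes lower at an unadjusted p under 0.05, compared with 2.95%, 2.71% and 6.36% of all genes. All 3 Plekhg5-/- SOD1-G93A libraries lay below all Plekhg5+/+ SOD1-G93A libraries in 6 of the 43 genes, compared with 10% of all genes, so that this share was near that of all genes.

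The 3 genes with the lowest fold changes were Mx1 (log2 fold change -1.62, SE 0.642), Ifi204 (-1.25, SE 0.493) and Zbp1 (-1.11, SE 0.591). Without Plekhg5+/+ SOD1-G93A replicate 1 these values were -0.17, -0.18 and -0.05. Over the 43 genes the median without this library was -0.04, with 25 genes negative and 18 positive. By edgeR 0 were then called, and 1 gene was lower at an unadjusted p under 0.05, compared with 2.85% of all genes. The mean of Plekhg5-/- SOD1-G93A mice was above the mean of Plekhg5+/+ SOD1-G93A replicates 2 and 3 in 18 of the 43 genes. The genes whose groups did not overlap were Irf9, Igtp, Mx2, Parp9, Lgals3bp and Ifi35, and their log2 fold changes without replicate 1 were between -0.32 and -0.15. For the microglia markers in the fit of all 12 libraries, 0 of 9 were called and 8 of 9 had an unadjusted p under 0.05, with a median log2 fold change of -0.60. Without replicate 1 their median was -0.30, with 0 of 9 called and 7 of 9 at an unadjusted p under 0.05. Other markers moved as well in the fit of all libraries, with medians of -0.91 for 5 red cell, 0.47 for 7 endothelial and 1.36 for 2 Schwann cell markers. Of these, 5, 5 and 1 had an unadjusted p under 0.05 and 0 were called. The share of all genes higher at this level is not given here for that fit. In the fit without replicate 1 these medians were -1.0001, 0.49 and 0.97. There 4, 4 and 0 of the markers had an unadjusted p under 0.05, and 0 were called. Of all genes, 2.51% were then higher and 2.85% lower at an unadjusted p under 0.05. The part of these markers in the differences of the 43 genes was not tested.

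**Figure D5:**
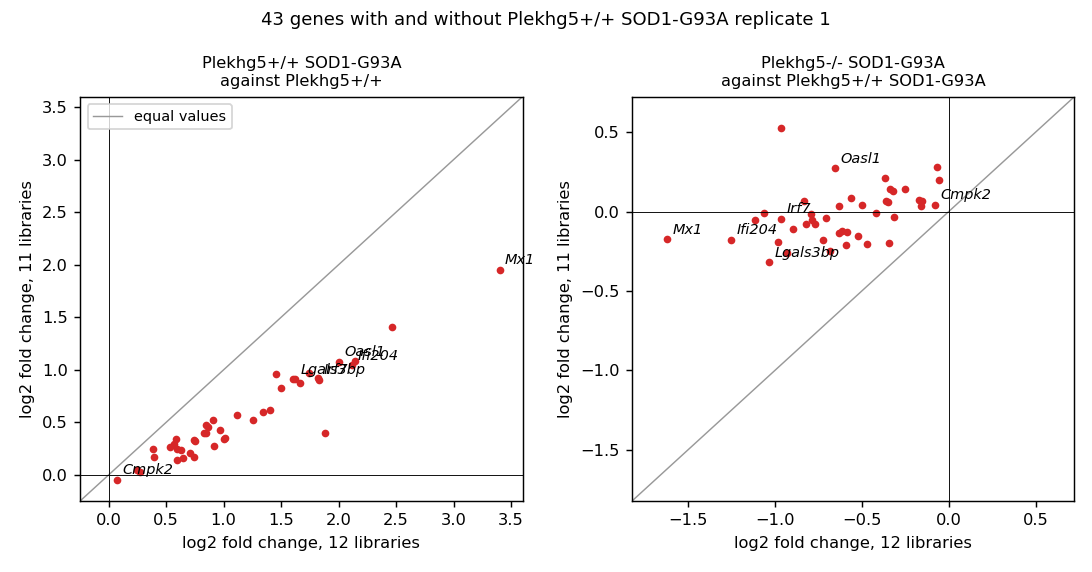
log2 fold changes of the 43 genes in edgeR fits of all 12 libraries (x axis) and of the 11 libraries without Plekhg5+/+ SOD1-G93A replicate 1 (y axis); the grey line marks equal values and each point is a gene. For Plekhg5+/+ SOD1-G93A against Plekhg5+/+ (left) the median moves from 0.92 to 0.40, and for Plekhg5-/- SOD1-G93A against Plekhg5+/+ SOD1-G93A (right) from -0.62 to -0.04.

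The comparison of SOD1-G93A within Plekhg5-/- mice does not contain the library that stood apart. In Plekhg5-/- SOD1-G93A against Plekhg5-/- mice, 39 of the 43 fitted differences were positive, and the median log2 fold change was 0.38. Of the 43 genes, 0 were called higher by edgeR, compared with 0.00496% of all genes. At an unadjusted p under 0.05 only Ifitm3 was higher (log2 fold change 0.58, SE 0.175, adjusted p = 0.676), compared with 3.27% of all genes, and DESeq2 with the prior and limma voom called 0 as well, with 1 and 2 genes at an unadjusted p under 0.05, compared with 1.9% and 5.55% of all genes higher. The 3 Plekhg5-/- SOD1-G93A libraries lay above the 3 Plekhg5-/- libraries in 14 of the 43 genes, compared with 7.25% of all genes. Among these were Oasl1, Oas1a, Igtp, Parp9, Ifitm3, Ifi44 and Lgals3bp.

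This comparison shares its estimate of the spread with the other genotypes. When Plekhg5+/+ SOD1-G93A replicate 1 was left out of the fit, the median log2 fold change in Plekhg5-/- SOD1-G93A against Plekhg5-/- mice stayed at 0.38, while 24 of the 43 genes instead of 1 had an unadjusted p under 0.05, compared with 4.56% of all genes. The number called remained 0, and the smallest adjusted p was 0.181. The largest positive differences were those of Oas3 (log2 fold change 1.22, SE 0.915), Oasl1 (1.12, SE 0.529) and Ifi44 (0.83, SE 0.564). The lowest were those of Ifi27l2a (-0.42), Mx2 (-0.12) and Cmpk2 (-0.01). The median of the microglia markers in the same comparison was 0.24, with 0 of 9 called and 1 of 9 at an unadjusted p under 0.05. Schwann cell markers of the nerve roots, Prx and Pmp2, had a median of 2.36, both with an unadjusted p under 0.05, and summed to between 52.7 and 81.9 CPM in Plekhg5-/- SOD1-G93A compared with 12.2 to 23.9 CPM in Plekhg5-/- mice. The 2 tested T and NK cell markers, Cd4 and Cd8a, had a median of 2.72, both with an unadjusted p under 0.05, and the 6 markers of this list summed to between 0.751 and 3.40 CPM compared with 0.293 to 0.599 CPM. The medians were 1.01 for 4 neutrophil, 0.66 for 3 B cell, 0.34 for 7 endothelial, 0.27 for 5 red cell, 0.08 for 7 astrocyte, -0.07 for 7 neuron and -0.21 for 6 oligodendrocyte markers, with 3 endothelial and 3 oligodendrocyte markers and none of the others at an unadjusted p under 0.05. Of all these markers 0 were called by edgeR, and their part in the differences of the 43 genes was not tested.

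Without the transgene, the median difference with loss of Plekhg5 was small, and no single difference passed the test. In Plekhg5-/- against Plekhg5+/+ mice, 30 of the 43 fitted differences were positive and 13 negative, with a median log2 fold change of 0.09. By edgeR 0 of the 43 genes were called higher, compared with 0.0149% of all genes, and 0 had an unadjusted p under 0.05, compared with 2.53% of all genes higher. DESeq2 with and without the prior and limma voom gave the same counts of 0, beside 1.17%, 1.25% and 3.14% of all genes higher at an unadjusted p under 0.05. The 3 Plekhg5-/- libraries were above the 3 Plekhg5+/+ libraries in 7 of the 43 genes, compared with 4.72% of all genes. These were Usp18, Dhx58, Ifi204, Ifit2, Mx1, Mx2 and Xaf1, and Slfn2 was the one gene whose libraries lay below.

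The largest positive differences in Plekhg5-/- against Plekhg5+/+ mice were those of Mx1 (log2 fold change 1.36, SE 0.879, edgeR adjusted p = 0.976), Ifi27l2a (1.24, SE 0.724) and Zbp1 (0.55, SE 0.774). The lowest were those of Slfn2 (-0.32, SE 0.363), Oas3 (-0.30, SE 1.01) and Gbp2 (-0.22, SE 0.369). Of these 6 differences, 0 passed the test. For Mx1 the unadjusted p was 0.148, and 0.00705 (adjusted p = 0.752) in the edgeR fit without Plekhg5+/+ SOD1-G93A replicate 1, in which 3 of the 43 genes were higher at an unadjusted p under 0.05, compared with 2.82% of all genes. The median of the 43 genes in that fit was also 0.09, and 0 were called.

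The interaction term measures how far the SOD1-G93A difference in Plekhg5-/- mice departs from that in Plekhg5+/+ mice. It was negative in all 43 genes, with a median of -0.65 on the log2 scale. By edgeR 0 of the 43 genes passed the test, compared with 0% of all genes called lower, and DESeq2 with the prior and limma voom also called 0. At an unadjusted p under 0.05 the term was negative in 5 genes, Ifi204, Igtp, Mx1, Mx2 and Lgals3bp, compared with 5.18% of all genes, and in 12 genes by DESeq2 with the prior, compared with 2.82% of all genes. The lowest terms were those of Mx1 (-2.98, SE 1.09, adjusted p = 0.464), Ifi27l2a (-1.88, SE 0.997) and Ifi204 (-1.73, SE 0.737). Without Plekhg5+/+ SOD1-G93A replicate 1 the median of the term was -0.15, with 29 genes negative and 14 positive, and 0 were called, with 2 lower at an unadjusted p under 0.05, compared with 4.11% of all genes. The terms of Mx1, Ifi27l2a and Ifi204 were then -1.53, -1.38 and -0.65.

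When the SOD1-G93A difference was averaged over both Plekhg5 genotypes, all 43 genes were positive, with a median log2 fold change of 0.59. By edgeR 1 of the 43 was called, Ifitm3 (log2 fold change 0.58, SE 0.123, adjusted p = 0.0439), compared with 1.14% of all genes called higher. At an unadjusted p under 0.05, 37 of the 43 were higher, compared with 9.39% of all genes. Mx1 (1.91), Zbp1 (1.63) and Oasl1 (1.56) had the largest values, and without Plekhg5+/+ SOD1-G93A replicate 1 these were 1.18, 1.10 and 1.10. In this fit of 11 libraries the median was 0.39 and 11 genes were called higher, compared with 1.44% of all genes, namely Irf7, Ddx58, Ifit3, Ifit3b, Oasl1, Oasl2, Igtp, Bst2, Ifitm3, Parp9 and Lgals3bp. The differences in this fit were smaller than with all libraries, for example 0.77 (SE 0.169, adjusted p = 0.0458) compared with 1.23 (SE 0.338, adjusted p = 0.105) for Irf7, but their errors were smaller still. The count was 11 without replicate 2 and 19 without replicate 3 of Plekhg5+/+ SOD1-G93A, compared with 2.48% and 2.34% of all genes. It was 0 without any one of the other 9 libraries, where between 0.0488% and 0.717% of all genes were called higher.

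In relation to the promoter sequences shown above, the 18 genes with a response element core reached a median of 3.50-fold of the Plekhg5+/+ mean in Plekhg5+/+ SOD1-G93A replicate 1, with a range from 1.49-fold to 8.49-fold. The 14 genes without the core in the 300 bases had a median of 2.29-fold, from 1.22-fold for Cmpk2 to 9.05-fold for Ifi44. The ranges overlapped widely, and the difference was not tested. Genes with 2 cores ranged from 1.97-fold for Ifitm3 to 6.16-fold for Oas1a. Among them Ifit1, Ifit3 and Bst2 were at 4.89-fold, 4.57-fold and 4.94-fold. Irf7 and Lgals3bp, without a core, were at 6.90-fold and 5.48-fold.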

How the data were processed

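Poly-A RNA libraries of spinal cord were prepared with a stranded kit from 12 mice. According to the paper's methods and the submitters' processing notes, the authors trimmed reads with Cutadapt version 2.4, mapped them with STAR version 2.7.2b to GRCm38.p6 with the human SOD1 cDNA added, and counted them by strand with featureCounts version 1.6.4. Reads with several matches were counted as fractions, so the deposited values are estimated counts per gene, neither normalized nor filtered. Related genes can therefore share reads: 16 of the 43 genes had whole counts in every library, and Eif2ak2 and Sp100 had fractions in all 12. All 12 columns of the table were assigned, and 0 had no sample.

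Counts were rounded and filtered with filterByExpr, and the 4 genotypes were fitted together with robust quasi-likelihood in edgeR version 4.0.16 (R version 4.3.3) with TMM normalization, Benjamini-Hochberg adjustment over 20155 genes and a threshold of 0.05. SE is the absolute log2 fold change divided by the root of F. An exact permutation test of 3 against 3 mice cannot give a p under 0.1 and was not used. On simulated data for Plekhg5+/+ SOD1-G93A against Plekhg5+/+, with 200 of 19982 genes changed 4-fold, 192 were recovered and 17 others called. The change was set alike in every SOD1-G93A library. Recovery of smaller differences, or of those carried by a single library, was therefore not tested. Alternatives used DESeq2 version 1.42.0 and limma version 3.58.1, other filters and thresholds, covariates and each library left out. Libraries of the same genotype were compared in pairs, and none was a duplicate of another of its genotype.

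The members, gene lists and tests were chosen with earlier results of these data known. Values are given for genes called in any comparison, for the 3 with the largest differences in each direction, and for Irf7, Irf9, Stat2, Usp18, Ifit1, Ifit3, Oasl2, Bst2, Ifitm3 and Ifi27l2a. Lgals3bp, Rsad2 and the genes with printed promoters were added after their values were seen. Figures were drawn with matplotlib version 3.10.9. Some genes of the marker and pathway lists are not reported here and were left out of the values of those lists.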

Additional observations from a re-analysis of the deposited data

How the results depend on the processing

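The number of the 43 genes called in Plekhg5+/+ SOD1-G93A against Plekhg5+/+ mice, 3 by edgeR, was 27 with DESeq2 with a prior, 26 with DESeq2 without it, 0 with limma voom and quality weights, 5 with only genes of at least 10 counts in every library, 0 with only the genotypes compared in the fit, 5 with Y-linked transcripts as a covariate, 1 among the 16 genes with whole counts, and 21 at an adjusted p under 0.1. With each library left out in turn it ranged from 0 to 24. For SOD1-G93A averaged over both Plekhg5 genotypes, the 1 call became 19 with DESeq2 with or without the prior, 2 with limma voom, 0 among the genes with whole counts and 11 at an adjusted p under 0.1, and ranged from 0 to 19 with a library left out. Of all genes, between 0.00976% and 3.05% were called higher in the first comparison and between 0.0488% and 2.48% in the average with a library left out, and 4.1% and 3.1% by DESeq2 with the prior. By limma voom, 1.27% of all genes were called higher in the first comparison. For the other alternatives no share of all genes is given here, so their counts show only how far the number moved with the setting. The cause of these changes was not tested. In the other 4 comparisons 0 of the 43 genes were called under every alternative run. A fit of only the genotypes compared does not exist for the interaction and the average, which use all 4. The direction of the difference of Igtp, Mx1, Parp9 and Ifitm3 in the comparisons that called them was the same under every alternative.

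Replicate numbers do not name shared animals. Libraries of the same number had correlations between -0.109 and 0.318 of their deviations from the genotype means, so the numbers were not taken to pair the mice. With the replicate number as a block, 4 genes in place of 3 were called in Plekhg5+/+ SOD1-G93A against Plekhg5+/+ mice. In the average over both Plekhg5 genotypes, 3 in place of 1 were called. No share of all genes called with this block is given here, so these counts show only how far the number moved.

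With 3 mice per genotype, a difference carried by 1 mouse raises the fitted difference and its error together, and genes under 1 CPM rest on few reads.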
